A study of Mus musculus with 16 samples.

Results

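The genes of synaptic vesicle release were followed through both tissues of the study. They were chosen by name, as the protein-coding genes whose symbols begin the families Syt, Stx, Vamp, Syn, Snap, Stxbp, Cplx, Rims, Unc13, Sv2 and Rab3 in the forms that the count table uses, together with Napa, Napb and Nsf, a rule that uses no measured value. This gave 74 genes of the 53465 in the table, of which 22040 are protein coding. Ribosome footprints and poly(A) mRNA had been sequenced from the same lysates, in 16 libraries. The DRG groups came from L3 to L5 dorsal root ganglia of female C57BL/6J mice 30 days after bilateral spared nerve injury (SNI) or after sham surgery at 8 weeks of age, and the spinal cord groups from the dorsal part of the lumbar cord of SNI and of sham mice. For SNI the surgeon ligates and cuts 2 of the sciatic nerve's branches, the tibial and the common peroneal, and leaves the sural one, so an SNI ganglion holds neurons with cut axons beside neurons with uncut ones. Tissue of 10 mice was pooled for every replicate, with 2 replicates in each of the 8 groups given by tissue, surgery and assay. The p-values therefore refer to pools and not to mice.

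A synaptic vesicle fuses when the vesicle SNARE synaptobrevin (Vamp1, Vamp2) zips up with the plasma membrane SNAREs syntaxin (such as Stx1a) and SNAP-25 (Snap25). Synaptotagmins sense the calcium that triggers fusion, complexins clamp and promote the assembled SNAREs, and RIM, Munc13 and Rab3 proteins dock and prime vesicles at the active zone. Afterwards the ATPase NSF and its SNAP adaptors (Napa, Napb) take the SNARE complexes apart. Synapsins and the SV2 glycoproteins are vesicle proteins. Sensory neurons make these proteins in the ganglion and release transmitter from their central terminals in the dorsal horn, whereas most transcripts in the cord come from its own cells. The pattern Snap with a number also takes in Snap91, the clathrin adaptor AP180, and Snap47, and many other syntaxins and VAMPs serve endosomes, the Golgi and other membranes.

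Between 18176471 and 28553113 reads lay in genes in the mRNA libraries and between 6898056 and 21613483 in the footprint libraries. The tissue labels held, as all 13 sensory neuron genes measured were higher in sham DRG than in sham cord and all 12 oligodendrocyte genes were lower. In bulk tissue, fewer cells of a type and less RNA per cell cannot be told apart. In the DRG, several lists of marker genes moved with the surgery. Of the lists, injury-induced sensory neuron genes rose in 14 of 15 tested, with a summed mRNA level of 2170 to 2176 CPM (counts scaled to library size) in SNI DRG and 1067 CPM in both sham libraries. Microglia and macrophage genes rose in 8 of 12, and skeletal muscle genes rose in 9 of 12 and fell in 1. Genes of cell types that belong to the cord fell in the DRG more often than they rose. Of 10 oligodendrocyte genes 6 fell and 2 rose, of 10 spinal cord neuron genes 6 fell and 1 rose, and of 8 astrocyte genes 6 fell and 1 rose. These lists are not pure cord markers, as 2 spinal cord neuron genes and 1 astrocyte gene were higher in sham DRG than in sham cord. Slc6a5, the glycine transporter of spinal interneurons, had 3.74 and 3.85 CPM in SNI DRG and 8.94 and 8.56 CPM in sham DRG, against 545 and 518 CPM in sham cord. It was not at 0 in any DRG library.

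Per exonic length, complexin 1 (Cplx1) was the highest of the 74 in the mRNA of both tissues, after SNI and after sham surgery. In DRG mRNA its level was 488 RPKM (reads scaled to exon length and library size) after SNI and 536 RPKM after sham surgery, and in cord mRNA it was 748 RPKM after SNI and 732 RPKM after sham surgery. In sham DRG it was followed by Syt11 at 418 RPKM, Snap25 at 319 RPKM and Vamp2 at 178 RPKM, and Syt4 was at 141 RPKM. The order in sham cord was different, with Snap25 at 642 RPKM and Syt11 at 229 RPKM after Cplx1, and Vamp1 was at 140 RPKM. At the other end, Cplx3, Cplx4, Stx19 and Syt8 stayed under the read minimum in every fit. A gene had to reach 128 reads in the sum of the libraries that a fit used from an assay. In DRG mRNA, Syt10 (51 reads), Vamp5 (74 reads) and Vamp8 (120 reads) also fell short of it, which left 67 of the 74 genes, and in DRG footprints Vamp5 (54 reads), Syt15 (97 reads) and Syt17 (114 reads) did. All reads of the 74 genes together made up 1.51% to 1.52% of mRNA reads in SNI DRG, against 1.61% to 1.62% in sham DRG, with no overlap. Such sums weigh abundant genes most, and Snap25 held a large part of this difference. The median log2 change of the 67 genes in DRG mRNA was -0.01. In cord mRNA the share was 2.04% to 2.05% in SNI and in sham libraries. The DRG footprint share was also lower after SNI, with 1.28% to 1.29% in SNI DRG against 1.35% to 1.36% in sham DRG. In cord footprints the share was 1.96% in both SNI libraries and 1.95% and 1.93% in the sham libraries. There both SNI libraries lay slightly above both sham libraries.

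After SNI, release genes changed in both directions in the mRNA of the DRG, and more fell than rose. Snap25 fell by 31.2% and Vamp1 by 20.8%, and with them fell Nsf, Napb, both complexins measured, Syt2, Syt3, the SV2 family and Rims2. A smaller set rose, led by Syt17, Rims4, Stx1a and Stx2. Of 67 genes tested, 11 rose and 19 fell at an adjusted p under 0.05 (edgeR's quasi-likelihood test, Benjamini-Hochberg over all genes). Among all 14494 genes tested, 15.9% rose and 17% fell, and the median change was 0.00 on the log2 scale, as against -0.01 for the 67. The share that rose, 11 of 67, was close to that of all genes, and the share that fell, 19 of 67, was above it. No gene changed by 2-fold or more.

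**Figure D1:**
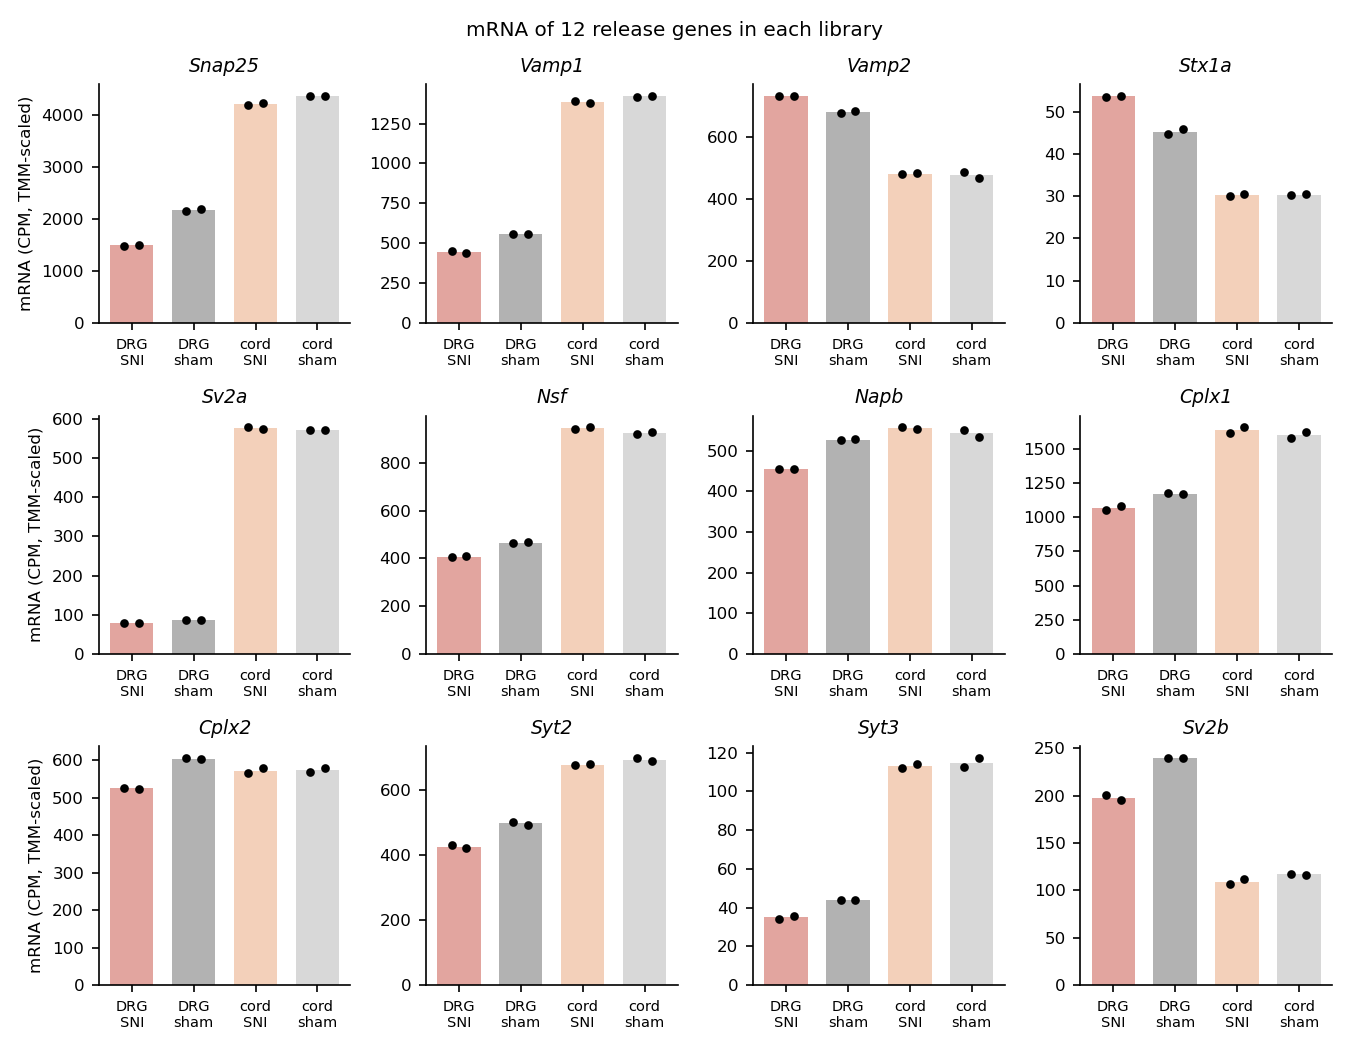
mRNA level in CPM, one panel for each of 12 release genes, with SNI DRG, sham DRG, SNI cord and sham cord from left to right. Bars are means and points the 2 libraries of a group. Snap25, Vamp1 and Syt2 show both SNI DRG points under both sham DRG points, while the cord bars of each gene are nearly level.

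Among the SNAREs of the synapse, Snap25 stood out. It lies on chromosome 2 of GRCm38 from 136713453 to 136782428, on the plus strand. Its mRNA was at 1488 and 1500.1 CPM in SNI DRG and at 2147 and 2190.2 CPM in sham DRG, so that the pairs were far apart. The log2 change was -0.54 ± 0.00574 (SE, adjusted p = 2.6e-39), or -31.2%. This SE may be too small, as the common spread of its fit lay at the lower limit of edgeR's search. Vamp1, one of the synaptobrevins (chromosome 6, 125215551 to 125245964), was at 450.0 and 437 CPM in SNI DRG and at 559.7 and 561 CPM in sham DRG. The change was -0.34 ± 0.0177 (adjusted p = 1.4e-17). The other synaptobrevin moved the other way. Vamp2 had 730.1 and 732 CPM in SNI DRG against 677 and 682 CPM in sham DRG, a rise of 0.10 (adjusted p = 9.2e-09). Stx1a, a syntaxin of the synapse (chromosome 5, 135023482 to 135051100), had 53.5 and 53.7 CPM in SNI DRG against 44.6 and 45.9 CPM in sham DRG, and rose by 0.25 ± 0.0406 (adjusted p = 8.8e-06).

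For Vamp1 and Syt2 the sequence before an annotated start is shown, because both fell in mRNA and in footprints and were expressed well in both tissues. The stretches are the 250 bases before an annotated start in RefSeq (GRCm38.p6, plus strand), at chr6:125215331-125215580 for Vamp1 and at chr1:134709050-134709299 for the inner start of Syt2. Capitals mark the letters of a GC box (GGGCGG, either strand) and, in Syt2, of an AP-1 site (TGACTCA or TGAGTCA).
Vamp1: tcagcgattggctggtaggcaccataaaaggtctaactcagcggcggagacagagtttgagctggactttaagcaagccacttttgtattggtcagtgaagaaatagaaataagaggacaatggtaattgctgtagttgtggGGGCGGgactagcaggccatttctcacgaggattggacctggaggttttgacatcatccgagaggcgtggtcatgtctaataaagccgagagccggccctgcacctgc
Syt2: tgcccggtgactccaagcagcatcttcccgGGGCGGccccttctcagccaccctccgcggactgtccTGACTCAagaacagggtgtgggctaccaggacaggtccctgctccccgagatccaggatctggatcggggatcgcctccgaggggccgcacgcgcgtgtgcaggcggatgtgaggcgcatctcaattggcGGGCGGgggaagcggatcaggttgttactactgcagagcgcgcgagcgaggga
The GC box of Vamp1 begins 108 bases before the start, and those of the printed Syt2 stretch begin 53 and 220 bases before its inner start, with the AP-1 letters at 183 bases. The outer start of Syt2 has its own stretch, chr1:134646362-134646611, which is not printed. There GC boxes begin 55, 68 and 93 bases before the start, and the AP-1 letters are absent. RefSeq windows were matched for 58 of the 74 genes, as 74 promoters that each run from 250 bases before to 50 bases after a start. A GC box was in 64.86% of these against 35.66% of all 32851 promoters in the table, and the E-box CACGTG in 14.86% against 7.15%. The AP-1 letters were in 4.05% against 5.2% of all promoters. The cAMP response element TGACGTCA was in 4.05% against 1.79% and the TATA box TATAAA in 6.76% against 13.62%. Some genes have several such windows, so these shares describe letters and not sites in use.

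SNARE disassembly went down at 2 of its 3 genes. Nsf, the ATPase, had 404 and 410.2 CPM in SNI DRG against 465 and 467 CPM in sham DRG (log2 change -0.20, adjusted p = 6.3e-11). Its neuronal adaptor Napb had 455 and 454 CPM in SNI DRG against 525 and 529 CPM in sham DRG (-0.21, adjusted p = 1e-12). Napa, the broadly expressed adaptor, was not called, with 313 and 325 CPM in SNI DRG and 307 and 303 CPM in sham DRG (0.06, adjusted p = 0.054). Both complexins fell. Cplx1 had 1056 and 1079 CPM in SNI DRG against 1175 and 1171 CPM in sham DRG (-0.14, adjusted p = 3.3e-16), and Cplx2 had 525 and 524 CPM in SNI DRG against 606 and 602 CPM in sham DRG (-0.20, adjusted p = 1.6e-13).

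The synaptotagmins did not move as one. Of 7 calcium-binding members tested, 3 rose and 2 fell, and of 8 others 1 rose and 2 fell. Syt2, the fast calcium sensor, had 430.4 and 420.5 CPM in SNI DRG against 503 and 493 CPM in sham DRG (-0.23, adjusted p = 2.4e-12). Syt3 had 34.2 and 35.6 CPM in SNI DRG against 43.6 and 43.9 CPM in sham DRG (-0.33, adjusted p = 4.2e-07). Syt1, the sensor of most forebrain synapses, stayed at 234 and 242 CPM in SNI DRG and 232 and 247 CPM in sham DRG, with overlapping pairs (-0.01, adjusted p = 0.81). Syt7, the slow high-affinity sensor, was not called either, at 347 and 342 CPM in SNI DRG and 348 and 351 CPM in sham DRG. The rises were those of Syt5, Syt6 and Syt9, each between 0.09 and 0.11. Of them Syt6 passed with each replicate left out, whereas Syt5 (adjusted p = 0.14) and Syt9 (adjusted p = 0.19) did not pass without sham replicate 2, nor without SNI replicate 1 (adjusted p = 0.074 and 0.0995). Syt11, which binds no calcium and is the most abundant of the family, had 2032 and 2010.5 CPM in SNI DRG against 2174 and 2176 CPM in sham DRG (-0.11, adjusted p = 8.8e-21). Syt17, a member without a transmembrane segment, had the largest rise of all the genes tested here, with 4.94 and 4.3 CPM in SNI DRG against 2.5 and 2.72 CPM in sham DRG (0.83 ± 0.17, adjusted p = 0.00018). It is a gene of low level, and its footprints were under the read minimum.

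At the active zone, 3 of 11 genes rose and 1 fell. Rims2, a scaffold of the release site, had 56 and 55 CPM in SNI DRG against 67 and 64.3 CPM in sham DRG (-0.24, adjusted p = 2.2e-06). Rims4, a short RIM, had 11.2 and 12.9 CPM in SNI DRG against 8.89 and 9.47 CPM in sham DRG (0.38, adjusted p = 0.0035), which did not pass without SNI replicate 2 (adjusted p = 0.053) or sham replicate 1 (adjusted p = 0.059). The priming factor Munc13-2 (Unc13b) rose by 0.15, with 41.9 and 41.4 CPM in SNI DRG against 38 and 37 CPM in sham DRG (adjusted p = 0.0104). It did not pass without sham replicate 2 (adjusted p = 0.093) or SNI replicate 1 (adjusted p = 0.0695). Munc13-1 (Unc13a) had 159 CPM in both SNI libraries and 157 and 158 CPM in sham DRG and was not called, nor were Rab3a, Rab3b, Rab3c, Rims1 and Unc13c. All 3 SV2 genes fell. Sv2b (chromosome 7, 75114894 to 75309262) had 200.3 and 195 CPM in SNI DRG against 239.8 and 239.7 CPM in sham DRG (-0.28, adjusted p = 2e-11). Sv2a had 78.4 and 78 CPM in SNI DRG against 86.8 and 86.2 CPM in sham DRG (-0.15, adjusted p = 0.00045), and Sv2c fell by 0.06 (adjusted p = 4.3e-06). None of the 3 synapsins was called. Among 18 SNAREs of other membranes, 2 rose and 3 fell. Stx2 had 117 and 115 CPM in SNI DRG against 101 and 99.6 CPM in sham DRG (0.21, adjusted p = 6e-07), while Vamp4, a SNARE of the Golgi and endosomes, fell by 0.13 (adjusted p = 0.00011). Stx5a, a Golgi syntaxin, had 47.6 and 46.3 CPM in SNI DRG against 43.6 and 41.9 CPM in sham DRG (0.14, adjusted p = 0.013), and did not pass without sham replicate 2 (adjusted p = 0.15) or SNI replicate 1 (adjusted p = 0.13). The remaining calls, Rab3d up and Stx8, Syt12 and Vamp7 down, each failed to pass without at least 1 of the replicates. Of the trafficking SNAREs 13 of 18 gave no call, where 15.9% of all genes rose and 17% fell, so most genes of any kind gave none. Snap29 for one had 41.5 and 43.7 CPM in SNI DRG and 43.8 and 41.3 CPM in sham DRG.

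**Figure D2:**
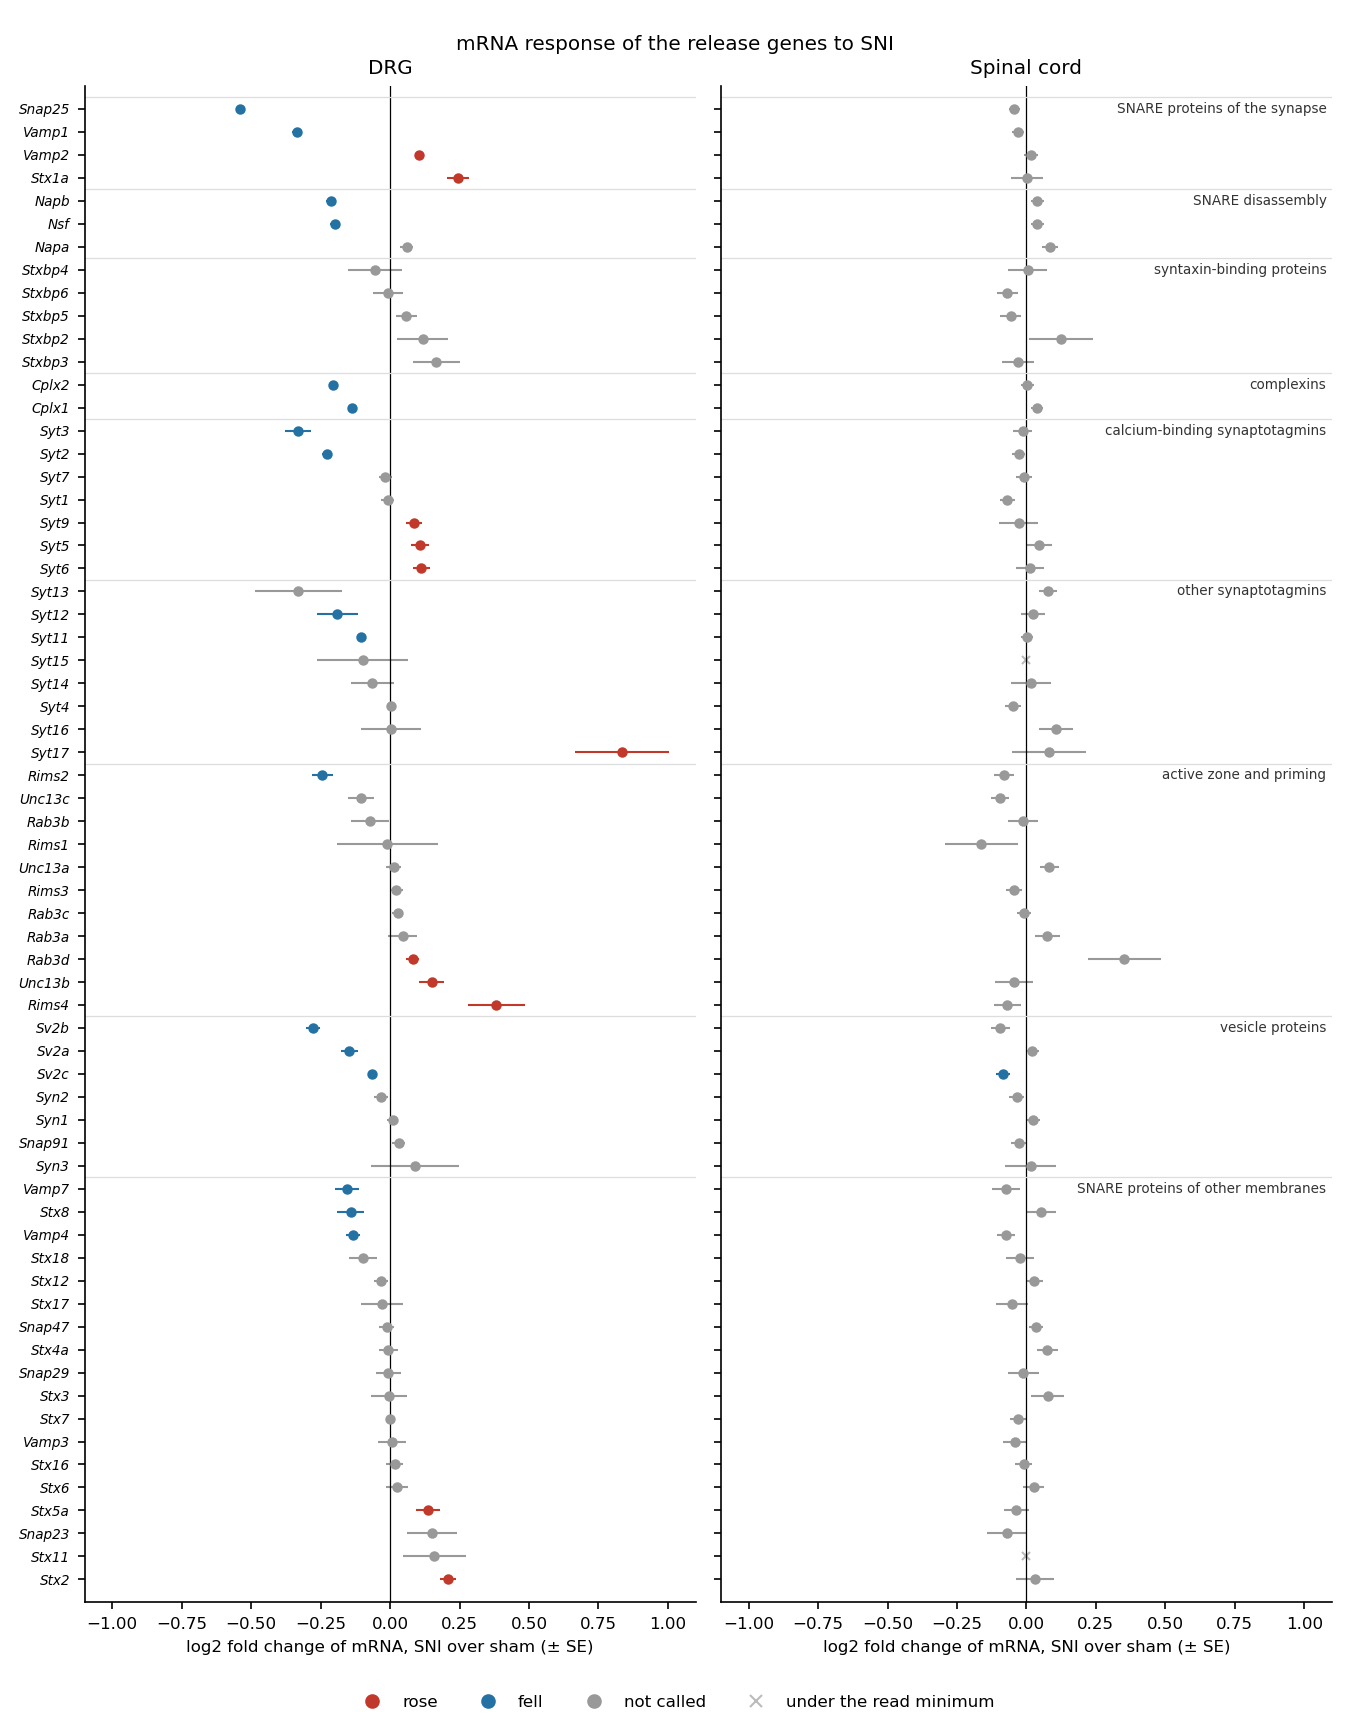
log2 change of mRNA, SNI over sham, with standard errors for each gene drawn, in DRG (left) and spinal cord (right), grouped by role. Red points rose, blue points fell, grey points were not called and crosses were under the read minimum. Snap25 lies furthest to the left in the DRG at -0.54 and Syt17 furthest to the right at 0.83, and the cord points stay close to 0.

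These changes were small, and they passed against a common coefficient of variation of 0.0099 in the DRG mRNA fit. This value is the lower limit of edgeR's search and not a measured spread between pools. Errors and p-values in DRG mRNA may therefore be too small. Of the 30 calls, 20 held with each replicate left out in turn, 5 of them rises and 15 of them drops, and 17 were also made by DESeq2. With a fixed coefficient of 0.1, only Snap25 and Syt17 remained. Library sizes without TMM factors moved the split to 14 rises and 15 drops, and that of all genes to 3072 against 1781, from 2308 against 2467. Syt12 (adjusted p = 0.099) was among the genes that did not pass under that scaling. Beside these drops, pan-neuronal markers fell at 7 of 12 genes and rose at 3, with a summed level of 18361 to 18390 CPM in SNI DRG against 20366 to 20450 CPM in sham DRG. Spinal cord neuron markers had 641 to 655 CPM in SNI DRG against 685 to 693 CPM in sham DRG. This sum takes in 2 genes that were higher in sham DRG than in sham cord. Of 13 sensory neuron genes, 8 fell and 4 rose, with a summed level of 6839 to 6862 CPM in SNI DRG against 7051 to 7064 CPM in sham DRG. All 3 lists moved with the drops, and their part in the result was not tested. Sv2a was at 570.3 to 571 CPM in sham cord, several times its DRG level. Counting did not use strand, so reads of overlapping genes could not be told apart. The overlap reached 32.27% of exonic bases for Stx18, 17.15% for Syt12 and 14.54% for Syt4.

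In DRG footprints, the reads that ribosomes protect, 4 genes rose and 14 fell of 67 tested. Of all 13038 genes, 8.4% rose and 8.28% fell. The median of the 67 was -0.04 against 0.00 for all genes. Snap25 was again among the drops. It had 1214 and 1197 CPM in SNI DRG against 1518 and 1504 CPM in sham DRG (-0.32 ± 0.0154, adjusted p = 1.9e-38). Vamp1 had 221 and 211 CPM in SNI DRG against 289 and 273 CPM in sham DRG (-0.38, adjusted p = 3.8e-15). Syt3 had the largest drop, with 30.2 and 33 CPM in SNI DRG against 45.9 and 42.8 CPM in sham DRG (-0.45, adjusted p = 5.8e-09). In each of these genes both SNI libraries lay below both sham libraries. Syt2 had 275 CPM in both SNI libraries against 358 and 351 CPM in sham DRG (-0.36, adjusted p = 1.5e-14), and Cplx1 had 488 CPM in both SNI libraries against 601 and 575 CPM in sham DRG (-0.27, adjusted p = 6.1e-14). Sv2b had 343 and 344 CPM in SNI DRG against 409 and 416 CPM in sham DRG (-0.26, adjusted p = 3.1e-10). Syn2, one of the synapsins, was called in footprints and not in mRNA. Its footprints were at 287 and 284 CPM in SNI DRG against 319.6 and 318 CPM in sham DRG (-0.16, adjusted p = 0.00088). Its mRNA was at 192 and 188 CPM in SNI DRG and 193 and 196 CPM in sham DRG (adjusted p = 0.36). Stx18, a syntaxin of the endoplasmic reticulum, was another such gene, with footprints at 34.4 and 33.6 CPM in SNI DRG against 43.3 and 40.3 CPM in sham DRG (-0.28, adjusted p = 0.00041). Its mRNA, at 31.6 CPM in both SNI libraries and 32.9 and 34.9 CPM in sham DRG, also lay lower after SNI. Neither Syn2 nor Stx18 was called in the test of footprints against mRNA given below. Stxbp6, known as amisyn, had 18.6 and 18.2 CPM of footprints in SNI DRG against 24 and 21.7 CPM in sham DRG (-0.29, adjusted p = 0.014), and did not pass without sham replicate 1 (adjusted p = 0.093) or SNI replicate 2 (adjusted p = 0.16).

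The drops shared between the assays numbered 10, which is 52.6% of the 19 in mRNA and 71.4% of the 14 in footprints. The overlap over all genes was not computed, and both assays used the same lysates, so these shares are not particular to release genes. Among the shared drops were Cplx1, Cplx2, Nsf, Snap25, Sv2b, Syt2, Syt3 and Vamp1. No rise was shared. The 4 genes that rose in footprints were Syt4, Syt1, Rab3c and Stx11. Syt4, a vesicle protein of dense-core granules, had 523 and 543 CPM in SNI DRG against 456 and 469.9 CPM in sham DRG (0.20, adjusted p = 1.4e-08), with its mRNA at 554 and 549 CPM in SNI DRG and 554 and 547 CPM in sham DRG. Syt1 had 323 and 329 CPM in SNI DRG against 300.1 and 298 CPM in sham DRG (0.13, adjusted p = 0.0101), which did not pass without SNI replicate 2 (adjusted p = 0.12). The small GTPase Rab3c had 218 and 214 CPM in SNI DRG against 196 CPM in both sham libraries (0.14, adjusted p = 0.0015), which did not pass without SNI replicate 1 (adjusted p = 0.11). Stx11, a syntaxin of immune cells, had 4.16 and 4.38 CPM in SNI DRG against 2.88 and 2.62 CPM in sham DRG (0.67, adjusted p = 0.0147). It did not pass without sham replicate 2 (adjusted p = 0.33), and microglia and macrophage genes, which rose in 9 of 11 in footprints, moved with it. Their part in the result was not tested. Of the 18 calls, 10 held with each replicate left out, 1 rise and 9 drops. Cplx2 did not pass without sham replicate 2 (adjusted p = 0.055), and Nsf (adjusted p = 0.078) did not pass without SNI replicate 2.

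**Figure D3:**
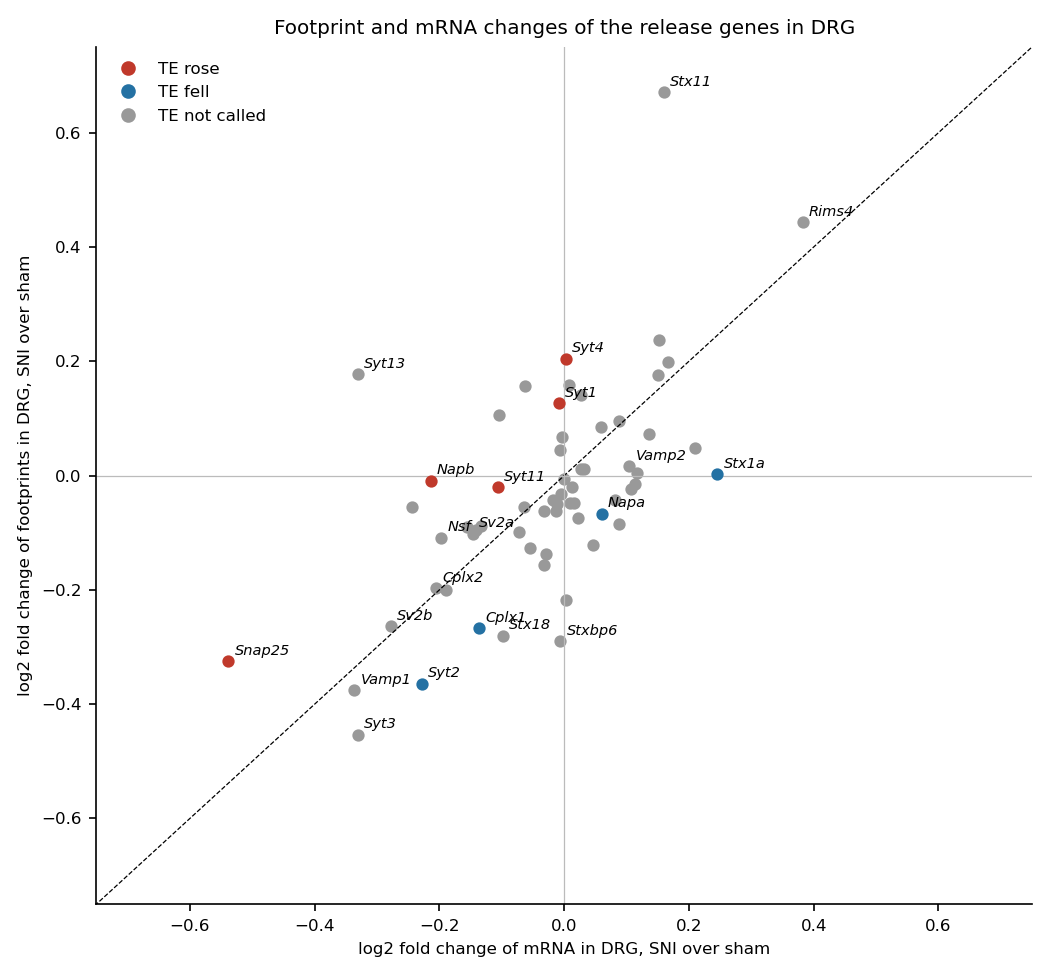
log2 change in DRG footprints (vertical axis) against log2 change in DRG mRNA (horizontal axis), SNI over sham, one point per gene drawn, coloured by the call on translational efficiency. The dashed line marks equal change. Snap25 lies above the line, at -0.54 in mRNA and -0.32 in footprints, and Cplx1 below it, at -0.14 and -0.27.

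Translational efficiency (TE) is the footprint level over the mRNA level of the same lysate. The test asked whether footprints and mRNA answered surgery by unequal amounts, with lysates as terms of the model, and by it TE rose for 5 genes and fell for 4 of 65 tested in the DRG. Of all 12710 genes, 4.22% rose and 3.21% fell. For Snap25 the footprints fell less than the mRNA. Its log2 TE was -0.29 and -0.33 in SNI DRG and -0.50 and -0.54 in sham DRG, a rise of 0.22 ± 0.0125 (adjusted p = 2.7e-63 by edgeR, 2.5e-05 by DESeq2). The DRG TE fit used a common coefficient of variation of 0.0099, the same lower limit as in DRG mRNA, below the 0.043 of DRG footprints alone. The edgeR errors and p-values for TE may therefore be too small. Napb had a log2 TE of -0.32 and -0.34 in SNI DRG and -0.54 and -0.53 in sham DRG, a rise of 0.20 (adjusted p = 9.6e-06). Its footprints, at 364 and 358 CPM in SNI DRG and 361 and 366 CPM in sham DRG, overlapped between the groups while its mRNA fell. Syt4 had -0.08 and -0.02 in SNI DRG and -0.28 and -0.22 in sham DRG, a rise in log2 TE of 0.19 (adjusted p = 1.2e-06). These 3 were the calls that held with each replicate left out, and the same 3 were called by DESeq2.

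The other rises were in Syt11, by 0.09 (adjusted p = 2.7e-12), and in Syt1, by 0.14 (adjusted p = 0.016). Syt11 did not pass without SNI replicate 1 (adjusted p = 0.0702) or SNI replicate 2 (adjusted p = 0.19), and Syt1 did not pass without sham replicate 2 (adjusted p = 0.53), SNI replicate 1 (adjusted p = 0.076) or SNI replicate 2 (adjusted p = 0.054). The 4 drops in TE were those of Cplx1, Syt2, Stx1a and Napa. Cplx1 had a log2 TE of -1.11 and -1.14 in SNI DRG and -0.97 and -1.03 in sham DRG (-0.13, adjusted p = 6.9e-06), and did not pass without SNI replicate 2 (adjusted p = 0.082). Syt2 had -0.64 and -0.61 in SNI DRG and -0.49 in both sham lysates (-0.13, adjusted p = 0.0151), so that for Cplx1 and Syt2 mRNA and TE fell together. Stx1a had -0.41 and -0.47 in SNI DRG and -0.04 and -0.29 in sham DRG (-0.25, adjusted p = 0.026), with footprints at 40.3 and 38.8 CPM in SNI DRG and 43.4 and 37.5 CPM in sham DRG while its mRNA rose. Napa had 0.46 and 0.42 in SNI DRG and 0.59 and 0.55 in sham DRG (-0.13, adjusted p = 0.024). Syt2, Stx1a and Napa, like Syt1, each passed with only 1 of the 4 replicates left out. Without sham replicate 1, for example, the adjusted p was 0.062 for Syt2, 0.45 for Stx1a and 0.1985 for Napa.

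**Figure D4:**
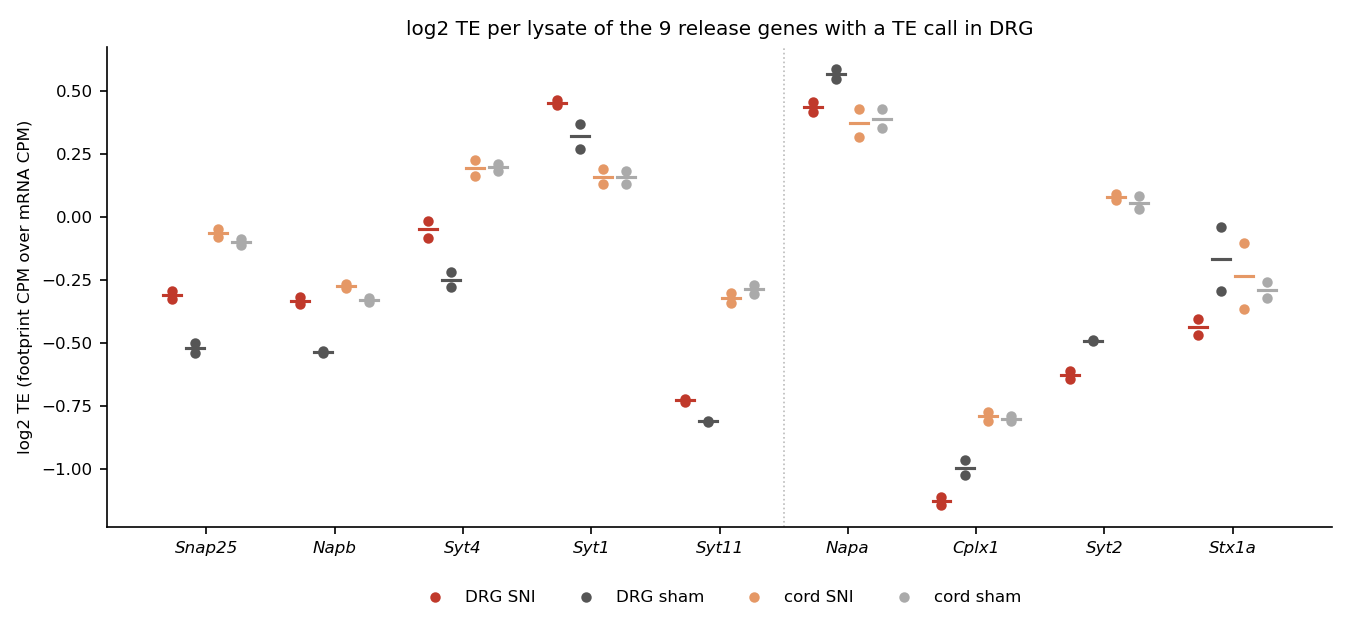
log2 TE in each lysate for the 9 genes called in the DRG, with SNI DRG, sham DRG, SNI cord and sham cord from left to right in each panel. Points are single lysates. Snap25, Napb and Syt4 lie higher in both SNI DRG lysates than in both sham DRG lysates, and their cord points differ little.

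The bases around the start codon are shown for 7 of these 9 genes, as the place where ribosomes begin. Each line gives 12 bases before the start codon and 18 from it on, from GENCODE M21 transcripts (GRCm38). Capitals mark the base at position -3, the ATG, and the base after it at +4. A purine at -3 and a G at +4 form the favoured context of vertebrate start codons. The first lines are genes whose TE rose, the others genes whose TE fell.
Napb: gcagcgggtGacATGGacaacgcagggaag
Syt11: tctgattacAacATGGctgagatcacaaat
Syt1: cttgaaccaAaaATGGtgagtgccagtcgt
Cplx1: caagccatcAccATGGagttcgtgatgaaa
Napa: ctgcgcgacGtcATGGacaactccgggaag
Stx1a: actcccgggAgcATGAaggaccgaacccag
Syt2: ccctctgccAccATGAgaaacatcttcaag
All 7 have a purine at -3, and Stx1a and Syt2 lack the G at +4. No window is given for Snap25 and Syt4, so Napb alone of the 7 is a TE call that held with each replicate left out. Both context bases were present in 41.1% of 56 release genes with such a window, as against 42.1% of 19449 protein-coding genes.

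The wider pathway was read from a list of 68 further genes of vesicle filling, recycling and the active zone. In DRG mRNA 16 of its 59 tested genes rose and 18 fell, where 15.9% of all genes rose and 17% fell. Both shares of the list were above those of all genes. Its DRG footprints rose for 6 and fell for 16 of 56, where 8.4% of all genes rose and 8.28% fell. DRG TE rose for 4 and fell for 5 of 56, where 4.22% of all genes rose and 3.21% fell. Thus footprints of the wider list, like those of the release genes, fell more often than they rose. The largest mRNA drops were those of Slc32a1, the vesicular transporter of GABA and glycine (-0.66), the endophilin Sh3gl2 (-0.31), the tomosyn relative Stxbp5l (-0.30) and the Rab3 effector Rph3a (-0.26). Slc32a1 is also on the list of spinal cord neuron genes. The largest rises were those of the calcium sensor Doc2b (0.55), Apba2 (0.20), Sh3gl1 (0.19) and Syngr3 (0.19). In TE the vesicular glutamate transporters went apart, with Slc17a6 up by 0.25 and Slc17a7 at -0.20. Other rises in TE were Cadps2 (0.22), a priming factor of dense-core vesicles, the active zone scaffold Pclo (0.18) and Synpr (0.16), and other drops were Syngr1 (-0.22), Dnm1 (-0.15) and Sncg (-0.14). For genes of the wider list, results by DESeq2 or with a replicate left out are not given here. The TE p-values behind these calls may be too small, as for the release genes.

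In the spinal cord hardly any release gene was called. In cord mRNA 1 of 66 tested genes fell and none rose, where 4.05% of all genes were called in either direction. The gene was Sv2c, with 484 and 489 CPM in SNI cord against 529 and 506 CPM in sham cord (-0.08, adjusted p = 0.038). It did not pass without sham replicate 1 (adjusted p = 0.40), SNI replicate 1 (adjusted p = 0.29) or SNI replicate 2 (adjusted p = 0.26), and 11 genes were at an unadjusted p under 0.05. In cord footprints 1 of 64 genes rose and none fell, where 2.24% of all genes were called. The gene was Napb, with 459.6 and 459 CPM in SNI cord against 436 and 428 CPM in sham cord (0.11, adjusted p = 0.017), which did not pass without sham replicate 1 (adjusted p = 0.083) or sham replicate 2 (adjusted p = 0.24). At an unadjusted p under 0.05 there were 8. In cord TE 0 of 64 genes were called by edgeR and 0 by DESeq2, where 0.253% of all genes were called, and Snap25 and Syt7 alone were at an unadjusted p under 0.05. Snap25 mRNA had 4197 and 4219.8 CPM in SNI cord and 4364 and 4355 CPM in sham cord, without overlap but not called (-0.04, adjusted p = 0.23). DESeq2 called none of the 74 in cord mRNA or footprints.

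A term for surgery and tissue together tested whether DRG and cord responded alike. In mRNA the response was higher in the DRG than in the cord for 4 genes of 69 tested and lower for 13, where 13.6% of all genes were called in either direction. Snap25 differed most among the drops, by -0.49 ± 0.0249 (adjusted p = 6e-21), with Syt3 at -0.31 (adjusted p = 0.00012), Vamp1 at -0.30 (adjusted p = 1.2e-11), Napb at -0.25 (adjusted p = 1.3e-08) and Nsf at -0.23 (adjusted p = 2.7e-08). Syt17 (0.76, adjusted p = 0.0103) and Rims4 (0.46, adjusted p = 0.0023) led the rises. The Syt17 difference did not pass without sham DRG replicate 1 (adjusted p = 0.078), SNI DRG replicate 1 (adjusted p = 0.086) or sham cord replicate 1 (adjusted p = 0.089). In footprints the response was higher in the DRG for 2 of 68 genes, Syt4 (0.26, adjusted p = 4.9e-06) and Syt1 (0.20, adjusted p = 7.4e-05), and lower for 9, where 7.12% of all genes were called. Library sizes alone made the mRNA split 6 against 11, and that of all genes 1351 against 974, from 1061 against 1208.

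The release machinery of the ganglion and that of the cord differed far more than either changed after SNI. In sham mRNA, 30 genes were higher in DRG and 36 lower of 68 tested, and 22 differed by over 2-fold. Of all genes 41.4% were higher and 42.3% lower. The median of the 68 was -0.20, against -0.01 for all genes. Rab3d, the Rab3 form known from secretory granules, had 192 and 191 CPM in sham DRG against 4.93 and 4.38 CPM in sham cord (log2 difference 5.37 ± 0.056, adjusted p = 1.9e-45). Syt9 had 117 and 113 CPM in sham DRG against 19 and 18.1 CPM in sham cord (2.64, adjusted p = 9.4e-37), and Stx2 had 101 and 99.6 CPM in sham DRG against 19.3 and 18.9 CPM in sham cord (2.40, adjusted p = 4.7e-35). Stx11 (3.96) and Syt15 (2.27) were also higher in the DRG, both from low levels. Syt4 (1.17) and Sv2b (1.05) followed.

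On the side of the cord, Syt13 had 4.39 and 5.22 CPM in sham DRG against 117 CPM in both sham cord libraries (-4.59 ± 0.0673, adjusted p = 3.5e-40). Sv2a had 86.8 and 86.2 CPM in sham DRG against 571 and 570.3 CPM in sham cord (-2.71, adjusted p = 1.7e-45). Rims4 (-2.42), Syt10 (-2.45), Unc13c (-1.74) and Syt12 (-1.62) were lower in the DRG as well. So families of near relatives were split between the tissues. Of the synaptobrevins, Vamp2 was higher in sham DRG (0.52, adjusted p = 1.6e-23) and Vamp1 lower (-1.33, adjusted p = 6.1e-39). Stx1a was higher in sham DRG (0.59, adjusted p = 5.7e-13). Of the SV2 proteins, Sv2b and Sv2c (0.69) were higher and Sv2a lower, and of the Munc13 proteins Unc13a (0.54) and Unc13b (0.94) were higher and Unc13c lower. In none of the genes given with CPM here did the groups overlap.

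**Figure D5:**
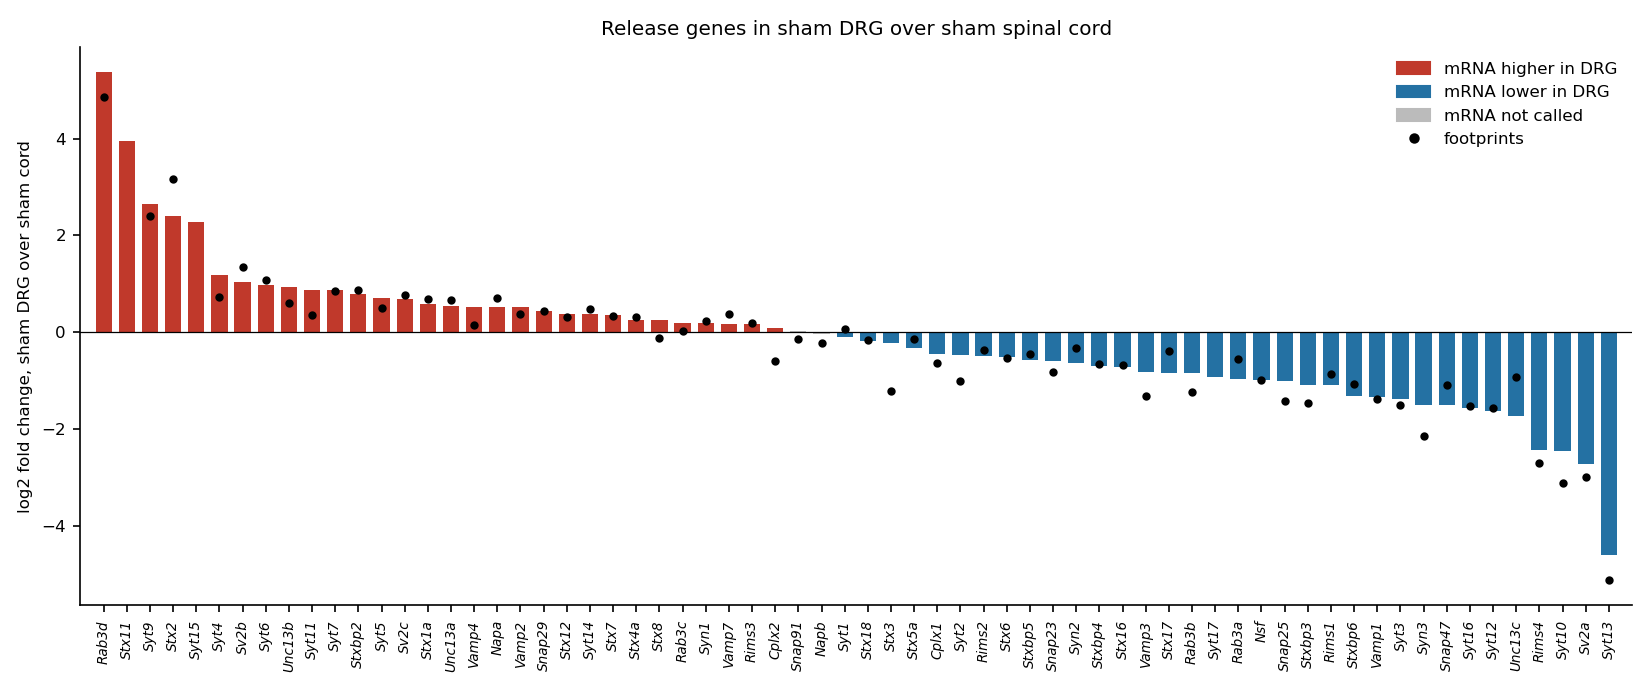
log2 difference, sham DRG over sham spinal cord, for the genes drawn, with bars for mRNA and dots for footprints. Rab3d (5.37 in mRNA, 4.86 in footprints) stands at the DRG end and Syt13 (-4.59 and -5.11) at the cord end.

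Footprints had Rab3d and Syt13 at the ends as well. In sham footprints 26 genes were higher in DRG and 35 lower of 65 tested, 23 by over 2-fold, where 39.2% of all genes were higher and 39.5% lower. Rab3d had 101 and 98.1 CPM in sham DRG against 3.99 and 3.06 CPM in sham cord (4.86, adjusted p = 5.6e-41), and Syt13 had 3.02 and 2.68 CPM in sham DRG against 96.4 and 98.8 CPM in sham cord (-5.11, adjusted p = 3.8e-42). Syt10 was lower by much in footprints, with 2.06 and 2.85 CPM in sham DRG against 23.4 and 22.8 CPM in sham cord (-3.12). In TE, 13 genes were higher in sham DRG and 22 lower of 65 tested, where 20.4% of all genes were higher and 22.6% lower. With no read minimum the direction of this split turned, to 17 higher and 9 lower, and without sham DRG replicate 2 it was 13 higher and 14 lower. Munc13-3 (Unc13c) had a log2 TE of -0.17 and -0.05 in sham DRG against -0.97 and -0.88 in sham cord (0.85, adjusted p = 7.8e-23). Rab3a (0.46), Sv2b (0.33) and Syn2 (0.33) were higher in the DRG too. Cplx2 was lower, with -2.60 and -2.54 in sham DRG against -1.84 and -1.92 in sham cord (-0.65, adjusted p = 8.2e-32), and so were Syt2 (-0.52), Syt11 (-0.50), Syt4 (-0.42) and Snap25 (-0.39). All genes named here for TE were also called by DESeq2. Stx3 had the lowest value, -0.99, but from pairs of 2.61 and 2.56 CPM in sham DRG and 5.22 and 6.68 CPM in sham cord footprints, and it did not pass without sham DRG replicate 2 (adjusted p = 0.054). Of the 35 TE calls, 19 held with each replicate left out, against 61 of 66 in mRNA and 54 of 61 in footprints.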

How the data were processed

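Ribosome footprints and poly(A) mRNA were counted in 16 libraries, 8 groups of 2, grouped by the sample labels. The authors filtered out rRNA and tRNA sequences (Bowtie 1.1.2), aligned the remaining reads to GRCm38.p5 (STAR 2.5.2b), without strand information, and deposited read counts per gene from HTSeq (version not given in the sources used here). The 24 deposited RPKM and TE columns were not used.

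Counts were tested with edgeR 4.0.16 (R 4.3.3), TMM within assay, library sizes from column sums, and Benjamini-Hochberg over all genes with at least 128 reads. Standard errors were taken as the size of the log2 change over the square root of the F statistic of the quasi-likelihood test. TE per lysate had 0.5 reads added to each count. CPM are on a common TMM scale per assay, while each test used its own factors, which shifts log2 changes by at most 0.0281. RPKM used the deposited exonic lengths. Alternatives were DESeq2 1.42.0, other scalings and read minimums, a replicate block, a fixed coefficient of variation of 0.1, a test against 1.5-fold, no lysate terms for TE, and leaving out each replicate. The tests were tried on simulated data. Tables were made with Python 3.11.15, pandas 2.3.3 and numpy 2.4.6, and plots with matplotlib 3.10.9.

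Named genes were a core of 30 release genes, up to 10 in each direction per comparison among those called whose groups did not overlap, and those under the read minimum, and some of the 74 genes, though counted, are not reported here by name or in the plots. For the wider pathway, up to 4 in each direction were named. The rule for the members reads only their names, but members, lists and tests were chosen with earlier results of these data known.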

Additional observations from a re-analysis of the deposited data

Results flagged for a closer look

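The response to SNI differed between DRG and spinal cord for 17 genes in mRNA and for 11 in footprints, by the interaction of surgery and tissue (edgeR, adjusted p under 0.05 over all genes). The values are log2 responses in the DRG minus those in the cord. Among these genes, the difference in mRNA was above 0 for Syt17 (0.76), Rims4 (0.46), Stx1a (0.25) and Vamp2 (0.094). It was below 0 for Snap25 (-0.49), Syt3 (-0.31), Vamp1 (-0.30), Napb (-0.25), Nsf (-0.23), Cplx2 (-0.20), Syt2 (-0.19), Sv2b (-0.18), Cplx1 (-0.17), Sv2a (-0.16), Rims2 (-0.16) and Syt11 (-0.10). In footprints it was above 0 for Syt4 (0.26) and Syt1 (0.20). It was below 0 for Syt3 (-0.43), Vamp1 (-0.38), Stxbp6 (-0.37), Syt2 (-0.35), Snap25 (-0.31), Cplx1 (-0.31), Cplx2 (-0.24), Syn2 (-0.15) and Napa (-0.13). Not all of these calls held with each replicate left out in turn. In mRNA, Rims2 (adjusted p up to 0.24), Vamp2 (up to 0.11), Syt17 (up to 0.089), Stx1a (up to 0.061) and Syt11 (up to 0.061) did not pass without at least 1 of the replicates, and in footprints Napa (up to 0.23), Stxbp6 (up to 0.17) and Cplx2 (up to 0.095) did not. With 2 pools per group, no single pool could be tested as lying apart.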

How the results depend on the processing

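With 2 pools per group, leaving one out leaves a lone pool that is assumed to vary like the others. The common coefficients of variation used were small (0.0099 for DRG mRNA, 0.043 for DRG footprints, 0.0171 for cord mRNA and 0.016 for cord footprints), and calls of small changes rest on them. The value for DRG mRNA is the lower limit of edgeR's search and not a measured spread, so errors and p-values there may be too small. The TE fits used a single common value for both assays, 0.0099 (the same limit) in the DRG, 0.0159 in the cord and 0.0153 in sham tissues. Footprints alone had 0.043 in the DRG and 0.0377 in sham tissues, so TE errors and p-values may be too small there. With a fixed coefficient of 0.1, 2 release genes were called in DRG mRNA, 3 in the TE of sham DRG against sham cord, and 0 in DRG footprints and TE, in cord mRNA and footprints and in both tissue interactions. Against a 1.5-fold change, 38 (sham mRNA), 32 (sham footprints) and 1 (sham TE) were called, and 0 in every comparison of SNI with sham and in both interactions. DESeq2 called 17 in DRG mRNA, 11 in DRG footprints, 3 in DRG TE, 0 in cord mRNA, footprints and TE, 17 in sham TE and 7 in the footprint interaction, where edgeR called 30, 18, 9, 1, 1, 0, 35 and 11. Cord mRNA gave 0 calls with library sizes alone and 2 with no read minimum, and the footprint interaction gave 17 with the read minimum in every library. With no read minimum, sham TE had 17 genes higher in DRG and 9 lower, against 13 and 22. Leaving out each replicate in turn gave 23 to 28 calls in DRG mRNA, 12 to 18 in DRG footprints, 4 to 6 in DRG TE, 0 to 3 in cord mRNA, 0 to 1 in cord footprints, 0 in cord TE, 62 to 66 in sham mRNA, 57 to 62 in sham footprints, 26 to 28 in sham TE, 12 to 19 in the mRNA interaction and 8 to 13 in the footprint interaction. Same-numbered pools did not deviate together in every pair (correlations of 0.0516 in DRG mRNA, 0.195 in DRG footprints, 0.000537 in cord mRNA and -0.0320 in cord footprints), and only 2 pairs exist, so the replicate number was not taken as a pairing. With a replicate block the calls were 31 in DRG mRNA, 21 in DRG footprints, 13 in DRG TE, 5 in cord mRNA, 1 in cord footprints, 66, 61 and 34 in sham mRNA, footprints and TE, and 18 and 13 in the mRNA and footprint interactions. No called value changed its sign under any alternative run. Of 4873 values of single genes under an alternative, 440 no longer passed and 61 newly passed. In 168 the sign changed with no call in either run, and 4204 kept both call and sign. The cause of these losses was not tested.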
